A study of Mus musculus with 4 samples.

Results

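Tal1 and Pdzk1ip1, which lie next to each other on mouse chromosome 4, had higher levels in Sox2-Tbx2LOF organs of Corti than in controls. The difference was 3.01-fold for Tal1 and, depending on the probe, 2.39-fold or 2.85-fold for Pdzk1ip1, sizes that hold for the main processing. The neighbours Stil and Cmpk1, both on the Tal1 side of the pair, did not pass the test. Neither did the relatives and binding partners of Tal1, and 0.249% of all tested probes passed it. The gene next to Pdzk1ip1 on the other side, Cyp4x1, was not above background. The gene set described here has 10 genes of the 30011 gene names on the array. Tal1 and Pdzk1ip1 were included because of their log2 ratio in these samples. Stil and Cmpk1 were included as their neighbours, Tal2 and Lyl1 as relatives of Tal1, and Lmo1, Lmo2, Lmo4 and Gata2 as partners. The 10 genes were represented by 12 probes, 2 each for Pdzk1ip1 and Lmo4. All 12 were well above background in both genotypes on all 4 arrays.

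Sound is sensed in the cochlea by the organ of Corti, an epithelium of inner and outer hair cells and their supporting cells. The 4 dual-colour arrays asked which transcripts depend on the transcription factor Tbx2 in this epithelium after its cell types have begun to form. Sox2-Tbx2LOF embryos had the genotype Sox2(creERT2);Tbx2(fl/fl), in which a tamoxifen-inducible Cre recombinase is driven by the Sox2 gene and therefore acts in Sox2-expressing cells. Control embryos carried no cre and were labelled Tbx2(fl/n.d.), which leaves the other Tbx2 allele undetermined, while the methods describe crosses of parents that were both homozygous for floxed Tbx2 and brought in an R26 mTmG reporter allele. Both groups were on the NMRI strain, both came from dams given 4 mg of tamoxifen by mouth at embryonic day E16.5, with progesterone according to the methods, and both were dissected at E18.5. RNA came from the basal part of the organ, in pools of several embryos sorted by sex. Since only Sox2-Tbx2LOF embryos carried the knock-in at Sox2, its effect and that of the loss of Tbx2 cannot be told apart. Arrays 1 and 2 held female pools and arrays 3 and 4 male pools. The Sox2-Tbx2LOF RNA was labelled with Cy3 on arrays 1 and 3 and with Cy5 on arrays 2 and 4, so that n = 4 pools per genotype.

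Tal1 encodes a basic helix-loop-helix (bHLH) transcription factor that is best known as a master regulator of blood and endothelial development. It binds E-box motifs as a dimer with E-proteins such as Tcf3, and in blood cells it forms a larger complex in which Lmo2 and Ldb1 bridge it to a GATA factor. Pdzk1ip1, also called MAP17, encodes a small membrane protein that binds PDZ-domain proteins and is found in kidney tubules. The gene order Cmpk1, Stil, Tal1, Pdzk1ip1 is conserved among mammals, and enhancers around Tal1 have been described to act on Pdzk1ip1 as well. In human T-cell leukaemia a deletion that fuses STIL to TAL1 places TAL1 under another gene's promoter.

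Promoter sequences are shown for the genes that were higher and for their neighbour Stil, to let the pair be compared with a gene of the same locus that did not pass the test. They comprise 250 bases before and 50 bases after a transcription start in RefSeq on the build GRCm38.p6, all on the plus strand. The RefSeq table held 14 such promoters for 9 of the 10 genes, all but Lmo2. Capitals mark the 3 motifs that were searched, which are the E-box CANNTG, the core of GATA sites (GATA, or TATC on the other strand) and a half-site of T-box factors (AGGTGTGA, or TCACACCT on the other strand). The E-box reads the same on both strands. The sequences are those of Tal1 (chr4:115056176-115056475), Pdzk1ip1 (chr4:115088458-115088757) and Stil (chr4:114999868-115000167).
Tal1: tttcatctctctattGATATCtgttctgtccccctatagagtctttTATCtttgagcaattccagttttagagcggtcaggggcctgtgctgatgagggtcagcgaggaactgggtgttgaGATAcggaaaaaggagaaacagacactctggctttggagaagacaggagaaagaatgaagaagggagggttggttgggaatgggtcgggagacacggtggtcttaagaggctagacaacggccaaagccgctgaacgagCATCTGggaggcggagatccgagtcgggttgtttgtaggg
Pdzk1ip1: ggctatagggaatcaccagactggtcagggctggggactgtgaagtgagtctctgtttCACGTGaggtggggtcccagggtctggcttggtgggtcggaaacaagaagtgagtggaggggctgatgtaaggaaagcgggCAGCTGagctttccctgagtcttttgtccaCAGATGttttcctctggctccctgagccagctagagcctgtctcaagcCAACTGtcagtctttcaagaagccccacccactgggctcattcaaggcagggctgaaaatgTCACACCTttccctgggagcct
Stil: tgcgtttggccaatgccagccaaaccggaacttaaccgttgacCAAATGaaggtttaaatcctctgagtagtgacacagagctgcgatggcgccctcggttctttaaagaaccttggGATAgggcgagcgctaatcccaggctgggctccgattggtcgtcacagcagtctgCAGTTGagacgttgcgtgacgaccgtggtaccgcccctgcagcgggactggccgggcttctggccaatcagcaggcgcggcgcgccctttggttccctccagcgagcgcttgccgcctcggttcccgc

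The Tal1 promoter held 4 GATA cores, of which GATA at −235 and TATC at −233 overlap in the run GATATC. Its single E-box, CATCTG, begins at 11 after the start. A further Tal1 start in RefSeq (chr4:115057561-115057860) had none of the 3 motifs in this window. The Pdzk1ip1 promoter held 4 E-boxes, the first of them CACGTG at −192, and no GATA core. It was the only one of the 14 promoters that held the T-box half-site, as TCACACCT beginning at 29 after the start. Stil had E-boxes at −207 and −78 and a GATA core at −133. Among 32851 RefSeq promoters of the same length, 72.3% held at least 1 E-box, 57.9% a GATA core and 1.28% the T-box half-site. A match of letters is a description of these windows, and no binding was measured.

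Across the whole experiment, 3.23% to 3.56% of the probe spots per array carried an outlier flag and none was saturated. The median spot signal was 355 to 412 in red (Cy5) and 315 to 381 in green (Cy3). Ratios correlated with r of 0.435 and 0.461 between arrays of the same dye orientation, and with r of −0.280 to −0.0884 between swapped arrays, so the dye was a term of each fit. The targeted gene Tbx2 was at −0.15 ± 0.14 and the knock-in gene Sox2 at 0.23 ± 0.09 (mean log2 ratio ± SD, n = 4), with adjusted p of 0.313 and 0.0871 in limma. Markers of the tissue were detected, with 7 of 7 hair cell markers and 7 of 7 of the Deiters and pillar cell markers reported here above background. The array ratio is relative to the other RNA of the pool, and in such bulk samples fewer cells of a type and less RNA per cell cannot be told apart.

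Levels are given as log2 channel levels after normalization, which can be compared between pools for 1 probe but not between probes. Tal1 was measured by probe A_55_P2106690 (mm9 chromosome 4, 114744219 to 114744278), which starts at base 4088 of its transcript. Its log2 level in the Sox2-Tbx2LOF pools of arrays 1 to 4 was 11.37, 11.20, 11.19 and 11.45. In the control pools it was 9.48, 9.65, 9.85 and 9.87. Every Sox2-Tbx2LOF pool was above every control pool, with a gap of more than 1 log2 unit between the groups, and both female control pools were below both male control pools. The log2 ratio of Tal1 within the arrays was 1.89, 1.56, 1.35 and 1.57. Its mean of 1.59 ± 0.23 (SD, n = 4) corresponded to a 3.01-fold higher level and placed the probe at rank 2 of the 28079 tested probes in the upward direction.

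Pdzk1ip1 was measured by a pair of probes that lie 22.19 and 22.22 kb beyond the Tal1 probe and share 30 bases, so that they are not independent of each other. The brighter probe, A_55_P2011678 (mm9 chromosome 4, 114766409 to 114766468), had log2 levels of 14.10, 14.05, 14.21 and 14.25 in the Sox2-Tbx2LOF pools. It had 12.84, 12.69, 13.07 and 12.99 in the control pools. The groups did not overlap, and the ratio was nearly the same on each array, at 1.26, 1.37, 1.15 and 1.26 on the log2 scale. The mean log2 ratio of 1.26 ± 0.09 (SD, n = 4) corresponded to a 2.39-fold higher level and to rank 5.

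The dimmer Pdzk1ip1 probe, A_55_P2171378 (mm9 chromosome 4, 114766439 to 114766498), had log2 levels of 9.44, 9.08, 9.48 and 9.23 in the Sox2-Tbx2LOF pools. Its control pools were at 7.69, 7.75, 7.77 and 7.98. The groups were again separate. Its log2 ratio of 1.51 ± 0.26 (SD, n = 4), or 2.85-fold, was at rank 3, with 1.75, 1.32, 1.71 and 1.25 on the 4 arrays. The ratio of this probe was higher on arrays 1 and 3, where the Sox2-Tbx2LOF RNA was in Cy3, with a mean log2 ratio of 1.73 against 1.29 in Cy5. There it exceeded the brighter probe by 0.49 and 0.57 log2 units, while on arrays 2 and 4 the difference between the probes was −0.04 and −0.01. With an offset of 0 in the background correction, the mean log2 ratio of the dimmer probe was 1.76, and with the log ratio of the scanner software it was 1.90. The direction for Pdzk1ip1 was the same with both probes and both dyes. The size of the difference depended on the probe, the dye and the processing.

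The 3 probes of Tal1 and Pdzk1ip1 were past the limits of an adjusted p under 0.05 and at least 1.5-fold. Of all 28079 tested probes, 70 (0.249%) were past these limits in either direction, and 34 (0.121%) were higher. All 4 Sox2-Tbx2LOF levels lay above all 4 control levels for 337 of the tested probes (1.2%), and levels did not overlap in either direction for 709 (2.53%). Because Tal1 and Pdzk1ip1 were chosen for this difference, these values describe them and no test is attached.

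**Figure D1:**
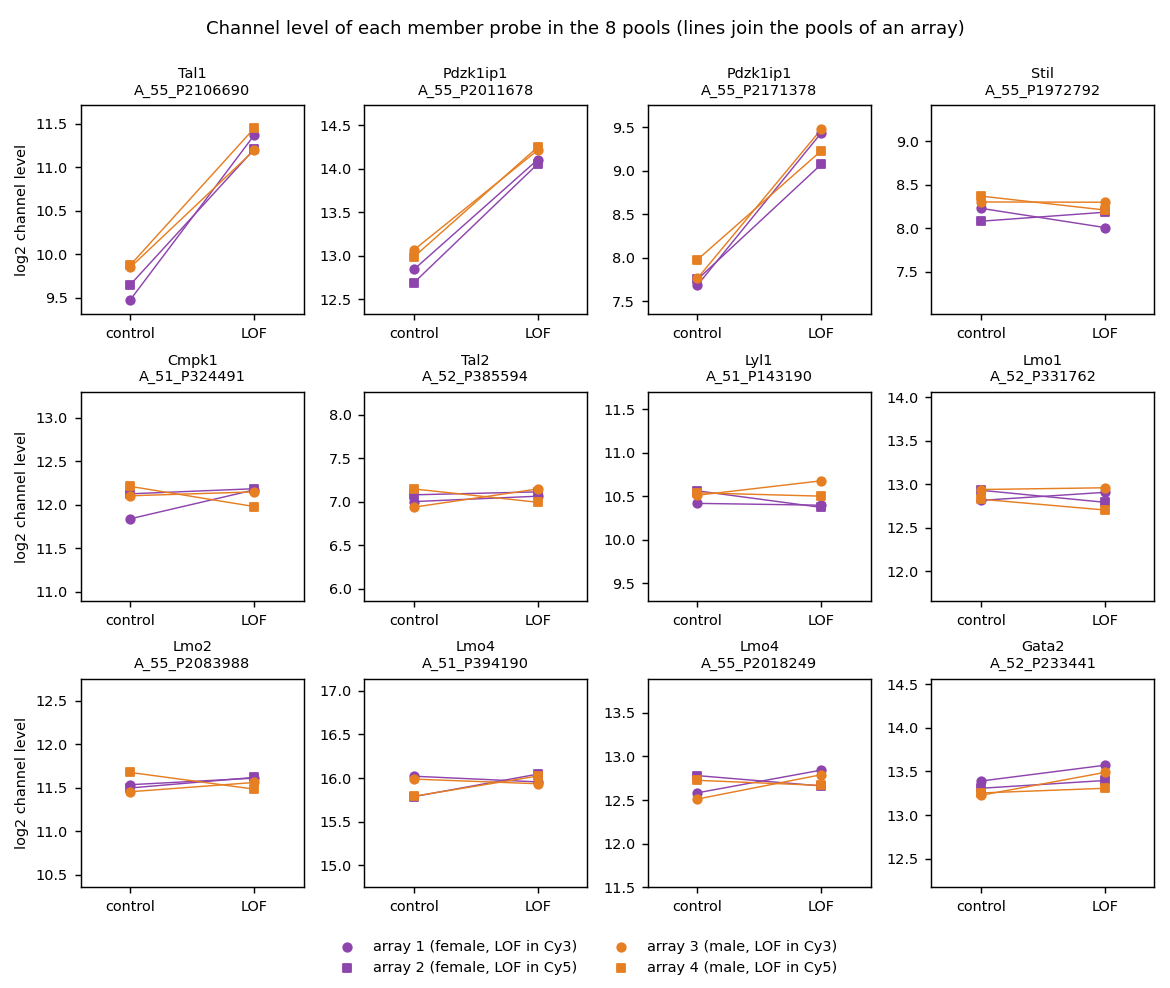
Log2 channel level (y axis) of the 12 probes in control pools and Sox2-Tbx2LOF (LOF) pools, 1 panel per probe, all panels spanning the same log2 range. Each point is a pool and each line joins the pools of 1 array, with female pools in purple, male pools in orange, circles for Sox2-Tbx2LOF in Cy3 and squares for Cy5. The groups are separate for Tal1 and both Pdzk1ip1 probes and overlap in the other 9 panels.

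The other 8 genes, which were not chosen by their ratios, showed no change that passed the test. Their 9 probes had mean log2 ratios between −0.07 and 0.15 with a median of 0.04, against a median of 0.00235 over all tested probes. None of the 9 was called, and the pool levels of the genotypes overlapped for each of them. Of all tested probes, 0.249% were called and 2.53% had levels that did not overlap. These counts are therefore what most sets of 9 probes would give. The 95% confidence intervals of the 9 ratios all lay between −0.21 and 0.25 on the log2 scale, that is within a 1.19-fold difference in either direction.

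Stil, which encodes a centriole duplication protein needed for cell division, is the gene next to Tal1 on the side away from Pdzk1ip1. Its probe A_55_P1972792 (mm9 chromosome 4, 114715399 to 114715458) lies −28.8 kb from the Tal1 probe. The log2 level of Stil was 8.01, 8.18, 8.30 and 8.21 in Sox2-Tbx2LOF pools and 8.23, 8.08, 8.30 and 8.37 in control pools. The ranges overlapped, and the sign of the ratio was not the same on all arrays. The mean log2 ratio of −0.07 ± 0.15 (SD, n = 4) did not pass the test (limma, adjusted p = 1.00; 95% interval −0.21 to 0.07).

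Cmpk1, which encodes a kinase of pyrimidine nucleotides, was measured −110 kb from the Tal1 probe (A_51_P324491, mm9 chromosome 4, 114634223 to 114634282, minus strand). Its log2 ratio was 0.33, 0.06, 0.04 and −0.23 on arrays 1 to 4. The values ran from a higher to a lower level in Sox2-Tbx2LOF pools, and the mean of 0.05 ± 0.23 (SD, n = 4) did not pass the test (limma, adjusted p = 1.00; 95% interval −0.10 to 0.21). The interval of either neighbour did not reach the ratio of Tal1 or Pdzk1ip1 on any array, the lowest of which was 1.15. Tal1 and Pdzk1ip1 were chosen for a high ratio on these arrays, so a gap to them was built in and is no test.

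The region was extended to 1 Mb on either side of the Tal1 probe. It held 31 tested probes of 21 genes. The 3 called probes were those of Tal1 and Pdzk1ip1, which were chosen for their ratio. The 26 tested probes of 17 other genes had log2 ratios between −0.09 and 0.17 with a median of −0.005, of which 8 were above and 18 below 0. None was called, against 0.249% of all tested probes. An unadjusted p under 0.05 in limma was found for 2, against 7.12% of all tested probes. Both belong to Efcab14, at 695 and 702 kb, with log2 ratios of 0.17 and 0.16 (limma, adjusted p = 0.575 and 0.631). The third Efcab14 probe had a log2 ratio of 0.08 (limma, adjusted p = 0.959).

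The nearest tested genes outside the set were Foxd2os, −155 kb from the Tal1 probe, and Cyp4a12b, 367 kb from it. The log2 ratio was −0.09 ± 0.11 for Foxd2os and −0.02 ± 0.13 for Cyp4a12b (SD, n = 4), with limma's adjusted p at 0.910 and 1.00. A probe of Cyp4x1 lies closer, 50.2 kb beyond Tal1, but it was not well above background in either genotype on any array. The probes of Tal1 and Pdzk1ip1, which were chosen for their ratio, lie 22 kb apart with no tested probe between them. Stil and Cmpk1 lie on one side, and the stretch from Pdzk1ip1 to Cyp4a12b held no other tested probe. The extent of the higher levels was therefore not mapped.

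**Figure D2:**
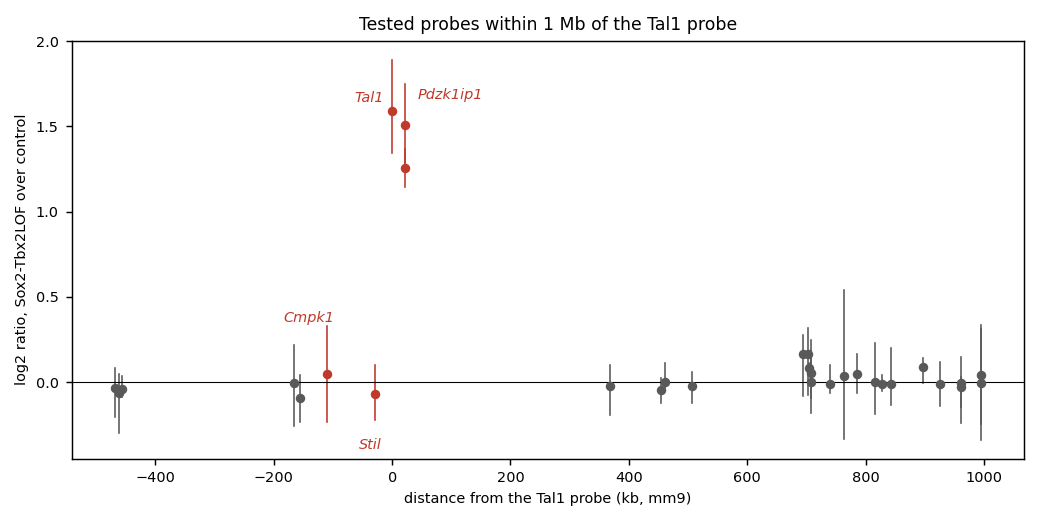
Mean log2 ratio of Sox2-Tbx2LOF over control (y axis) for the 31 tested probes within 1 Mb of the Tal1 probe, against the distance from that probe in kb (x axis). Points are means over 4 arrays, vertical lines run from the lowest to the highest array, and probes of the gene set are in red. The probes of Tal1 and Pdzk1ip1 are between 1.26 and 1.59, and the other 28 are between −0.09 and 0.17.

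Tal2 and Lyl1 encode the closest bHLH relatives of Tal1, and Lyl1 can take over part of its function in blood cells. Tal2 (A_52_P385594, mm9 chromosome 4, 53799664 to 53799723) lies on the same chromosome but far outside the Tal1 region. The Tal2 probe was dim, with a mean spot signal of 90.5 to 154 before background correction over the pools of both genotypes. Its log2 levels were 7.06, 7.11, 7.15 and 6.99 in Sox2-Tbx2LOF and 7.00, 7.08, 6.94 and 7.15 in control pools, ranges that overlapped nearly completely. The mean log2 ratio of Tal2 was 0.04 ± 0.15 (SD, n = 4; 95% interval −0.09 to 0.16). At this brightness the offset used in the background correction pulls ratios towards 0.

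Lyl1 (A_51_P143190, mm9 chromosome 8, 87228531 to 87228590) was well detected, with log2 levels of 10.40, 10.37, 10.68 and 10.50 in Sox2-Tbx2LOF pools. Its levels were 10.42, 10.56, 10.51 and 10.54 in control pools. The highest Sox2-Tbx2LOF pool was above all controls and the lowest was below them. The mean log2 ratio of Lyl1 was −0.02 ± 0.15 (SD, n = 4; limma, adjusted p = 1.00; 95% interval −0.15 to 0.10). For neither relative did the mean ratio exceed the spread between arrays.

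Lmo1, Lmo2 and Lmo4 are LIM-only proteins, which bind no DNA themselves and join transcription factors to the Ldb1 scaffold. Lmo2 is the usual partner of Tal1 in blood cells, and Lmo4 is widely expressed in epithelia and neural tissue. Lmo2 (A_55_P2083988, mm9 chromosome 2, 103821857 to 103821916) had log2 ratios of 0.08, 0.12, 0.11 and −0.19. Lmo1 (A_52_P331762, mm9 chromosome 7, 116282086 to 116282145, minus strand) had 0.09, −0.14, 0.02 and −0.12. The mean log2 ratios were 0.03 ± 0.15 for Lmo2 and −0.04 ± 0.11 for Lmo1 (SD, n = 4; limma, adjusted p = 1.00 for both). The 95% intervals were −0.11 to 0.16 for Lmo2 and −0.14 to 0.07 for Lmo1.

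Lmo4 was represented by probes A_51_P394190 (mm9 chromosome 3, 143851697 to 143851756) and A_55_P2018249 (143856878 to 143856937), both on the minus strand. Their mean log2 ratios were nearly equal, at 0.09 ± 0.18 and 0.09 ± 0.21 (SD, n = 4; limma, adjusted p = 0.840 and 0.868). Array by array they ran against each other. The first was at −0.07, 0.26, −0.05 and 0.23, and the second at 0.26, −0.12, 0.28 and −0.06. The first probe was thus higher with Sox2-Tbx2LOF in Cy5 and the second with Sox2-Tbx2LOF in Cy3, with differences between the dyes of −0.30 and 0.36 log2 units. For Lmo4 the dye moved the ratio of either probe more than the genotype did, and the swap of dyes brought both to the same mean.

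Gata2 encodes a zinc-finger factor that can fill the GATA position of the Tal1 complex and is also expressed in the inner ear. Its probe A_52_P233441 (mm9 chromosome 6, 88156362 to 88156421) had log2 levels of 13.57, 13.40, 13.49 and 13.31 in Sox2-Tbx2LOF pools and 13.39, 13.31, 13.23 and 13.25 in control pools. The groups overlapped, as the Sox2-Tbx2LOF pool of array 4 was below the control pool of array 1. Within each array the Sox2-Tbx2LOF pool was the higher one, with log2 ratios of 0.18, 0.09, 0.26 and 0.05, and the ratio was larger on both arrays with Sox2-Tbx2LOF in Cy3. Gata2 was the only probe among the 9 with the same sign on all 4 arrays, which 9.01% of all tested probes showed. The mean log2 ratio was 0.15 ± 0.09 (SD, n = 4), a 1.11-fold difference with a 95% interval of 0.04 to 0.25. It had an unadjusted p of 0.0136 in limma, and after adjustment over the whole table it missed the threshold (adjusted p = 0.368).

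**Figure D3:**
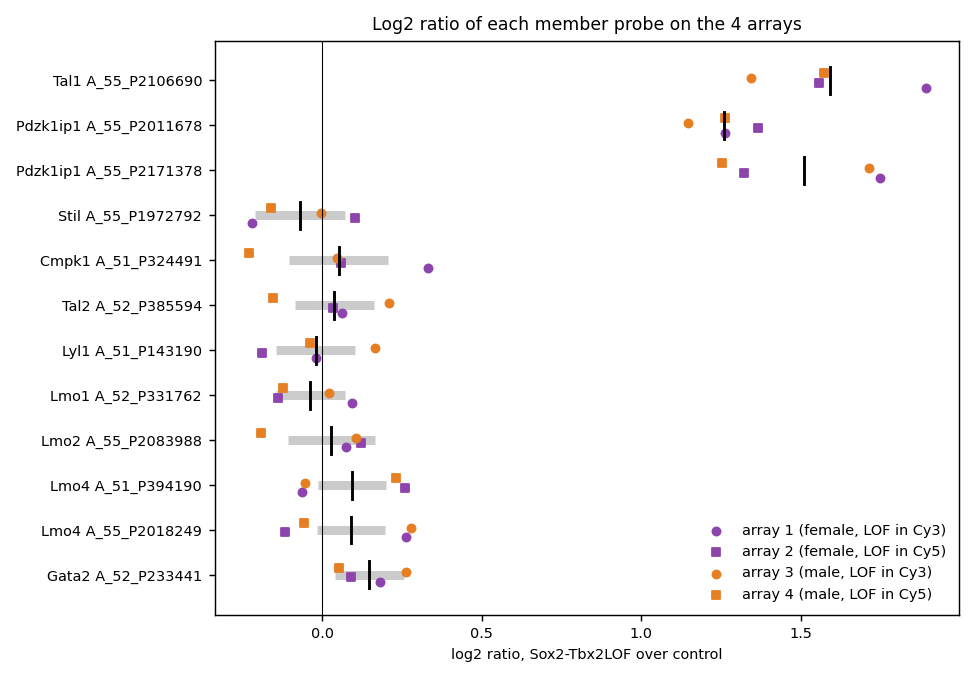
Log2 ratio of Sox2-Tbx2LOF over control (x axis) for the 12 probes on each of the 4 arrays. Points are arrays, black ticks are means, and grey bars are 95% confidence intervals of limma for the 9 probes not chosen by their ratio. Tal1 and Pdzk1ip1 lie above 1.1 on every array, the other 9 probes have intervals within −0.21 to 0.25, and circles and squares (the dyes) do not overlap for the dimmer Pdzk1ip1 probe, Tal2, Lyl1, Lmo1, both Lmo4 probes and Gata2.

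The effect of sex was tested with a sex by genotype term, which the choice of the genes did not use. This term compares the genotype ratio and not the levels, as both pools of an array had the same sex. No probe of the set had a log2 ratio that differed by sex at an adjusted p under 0.05 in limma. The same held for all 28079 tested probes. At an unadjusted p under 0.05 there was 1 probe of the set and 565 (2.01%) of all tested probes. The Tal1 log2 ratio was 1.72 in female and 1.46 in male pools, a male minus female difference of −0.26 (limma, 95% interval −0.61 to 0.08). For the brighter and the dimmer Pdzk1ip1 probe the difference was −0.11 (95% interval −0.36 to 0.14) and −0.05 (95% interval −0.30 to 0.19). The probe with the low unadjusted p was that of Cmpk1, at 0.19 in female and −0.09 in male pools (difference −0.29, 95% interval −0.53 to −0.04, limma unadjusted p = 0.0280, adjusted p = 1.00). With 2 arrays per sex these intervals are wide.

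Other genes of the Tal1 complex were examined as lists. Of all tested probes 0.249% were called, so none called is the usual count for this and each later list. The E-proteins Tcf3, Tcf4 and Tcf12, which dimerize with Tal1, were all tested and none was called. Tcf4 had the largest log2 ratio of them, 0.06 (limma, adjusted p = 1.00), followed by Tcf3 with 0.04. Of the scaffold, GATA and RUNX partners 7 of 8 were tested, none was called, and their median log2 ratio was 0.06. In that list Lmo3 was at −0.16 ± 0.08 (SD, n = 4; limma, adjusted p = 0.274) and Runx1 at 0.07 ± 0.29 (SD, n = 4). Gata1, the GATA partner of Tal1 in red blood cells, was not above background in enough arrays to be tested. The 7 corepressors, among them Rcor1 at 0.06 and Cbfa2t3 at 0.04, had a median log2 ratio of 0.02 and none was called.

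Among the Id proteins, which sequester E-proteins, 4 were tested and none was called. Id4 had log2 ratios of −0.17, −0.32, −0.14 and −0.47, below 0 on 4 of 4 arrays and lower on both with Sox2-Tbx2LOF in Cy5. Its mean of −0.28 ± 0.15 (SD, n = 4; limma, adjusted p = 0.0468) passed the adjusted p but was under the 1.5-fold limit. Of all tested probes 277 (0.987%) passed that p, called ones included. Id2 was at 0.03 (limma, adjusted p = 1.00). Of the bHLH factors of the ear and the related NSCL factors, 10 of 11 were tested and none was called. Hey2, a Notch target, was at 0.29 ± 0.08 (SD, n = 4; limma, adjusted p = 0.0409), again under the fold limit. Heyl, another of that family, was at 0.27 ± 0.29 (SD, n = 4; limma, adjusted p = 0.0643), with its ratio high on the arrays with Sox2-Tbx2LOF in Cy3.

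Erythroid targets of Tal1 and a list of endothelial and early blood genes were examined as well. None of these genes passed the test, which 0.249% of all tested probes did. Of the erythroid targets 7 of 8 were tested and none was called, with 5 below and 2 above 0 and a median log2 ratio of −0.03. Hbb-b1 (beta globin) was at −0.13 ± 0.16 and Klf1, an erythroid transcription factor, at −0.13 ± 0.14 (SD, n = 4; limma, adjusted p = 0.717 and 0.833). Of the endothelial and early blood genes 9 of 10 were tested and none was called. All 9 had mean log2 ratios of 0.03 to 0.12, with a median of 0.05 against 0.00235 over all tested probes. The largest were Cdh5 at 0.12 ± 0.10 and Pecam1 at 0.12 ± 0.42 (SD, n = 4; limma, adjusted p = 0.761 and 0.869). Pecam1 was at −0.24, 0.61, −0.22 and 0.31 over the arrays, below 0 where the Sox2-Tbx2LOF RNA was in Cy3 and above 0 where it was in Cy5. Genes for partners of the Pdzk1ip1 protein gave 4 of 4 tested and none called, with Pdzk1 at 0.07 and Slc9a3r2 at 0.04 (limma, adjusted p = 1.00 for both).

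Since Tal1 is known from blood and endothelial cells, markers of those cells were set beside it. The erythroid markers were below 0 in 5 of 5 tested genes with a median log2 ratio of −0.08, the lowest being Slc4a1 at −0.27 ± 0.28 (SD, n = 4; limma, adjusted p = 0.177). The log2 of their summed level was 16.75 to 17.16 in Sox2-Tbx2LOF pools and 16.83 to 17.12 in control pools, and the globin gene Hbb-b1, a defining gene of this lineage, was above background in both genotypes. The endothelial markers were above 0 in 7 of 7 genes with a median of 0.05, led by Cldn5 at 0.21 ± 0.08 (SD, n = 4; limma, adjusted p = 0.145), and none was called. Their summed log2 level was 15.59 to 15.78 in Sox2-Tbx2LOF pools and 15.53 to 15.69 in control pools. No erythroid marker was called either, and the median log2 ratio over all tested probes was 0.00235. Not every gene kept its sign across the arrays. Hba-a1 was at −0.29, 0.34, −0.33 and 0.16, and Egfl7 at 0.26, −0.22, 0.18 and −0.11, so the sign of a mean is a weak description. These marker lists overlap with the lists of erythroid targets and of endothelial and early blood genes above, so their values are not independent of those. Alas2, Hba-a1 and Hbb-b1 were also among the erythroid targets. Cdh5, Kdr, Pecam1, Tek and Tie1 were also among the endothelial and early blood genes. The part of blood and endothelial cells in the levels of Tal1 and Pdzk1ip1 was not tested.

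The macrophage markers had 2 genes above and 3 below 0, with Aif1 at 0.06 and Csf1r at −0.04, and a median log2 ratio of −0.003. Their summed log2 level was 13.51 to 13.72 in Sox2-Tbx2LOF and 13.46 to 13.71 in control pools. The megakaryocyte and mast cell markers had 2 above and 2 below 0, with Pf4 at −0.11 and Itga2b at −0.06, and a median of −0.02. Their summed log2 level was 12.92 to 13.10 against 12.95 to 13.13. None of the 9 genes was called, against 0.249% of all tested probes.

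Markers of the cells of the organ of Corti itself were examined in the same way. Of the 7 Deiters and pillar cell markers reported here, which label supporting cells, 5 were above and 2 below 0 and none was called. Heyl, given above, had the largest log2 ratio, followed by Prox1, a homeobox factor of supporting cells, at 0.17 ± 0.12 (SD, n = 4; limma, adjusted p = 0.232). These 7 genes had a median of 0.10, and their summed log2 level was 16.22 to 16.36 in Sox2-Tbx2LOF and 16.10 to 16.26 in control pools. Of the 7 hair cell markers, Slc17a8, the vesicular glutamate transporter of inner hair cells, was called lower, with log2 ratios of −0.49, −0.83, −0.49 and −0.83. The size of the Slc17a8 ratio thus depended on the dye. It was under the 1.5-fold limit on both arrays with Sox2-Tbx2LOF in Cy3 and past it on both with Cy5. Its mean log2 ratio was −0.66 ± 0.20 (SD, n = 4; limma, adjusted p = 2.85e-04). Otof, which encodes a protein of hair cell synapses, was at −0.40 ± 0.19 (SD, n = 4; limma, adjusted p = 0.00984), under the fold limit. The median of the hair cell list was −0.01, and its summed log2 level was 14.33 to 14.50 against 14.47 to 14.66. The part of these supporting and hair cells in the levels of Tal1 and Pdzk1ip1 was not tested.

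**Figure D4:**
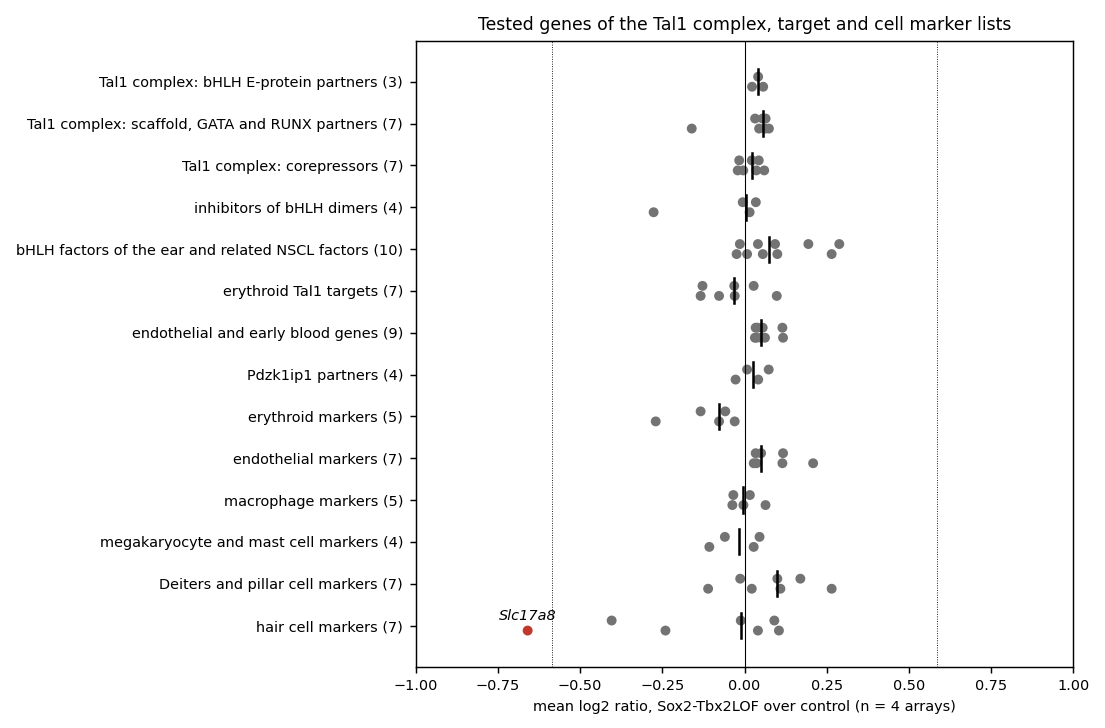
Mean log2 ratio of Sox2-Tbx2LOF over control (x axis) of each tested gene in the lists of the Tal1 complex, its targets and cell markers, with the number of tested genes in parentheses. Grey points were not called, the red point was called, black ticks are list medians, and dotted lines mark 1.5-fold in either direction. The called gene is Slc17a8 at −0.66, and list medians lie between −0.08 and 0.10.

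The levels of Tal1 and Pdzk1ip1 over the 8 pools were alike, with a Pearson r of 0.988 between Tal1 and the brighter Pdzk1ip1 probe and of 0.980 with the dimmer one. The 8 pools fall into 2 genotypes, and each pair of pools shares an array, so that r is used here as a measure of likeness alone. Tal1 and Pdzk1ip1 were both chosen for their ratio between the genotypes, so a high r between them was built in. Any probe with a steady difference between the genotypes also has a high r with them. Outside the gene set, the levels most like those of Tal1 were found for Tox3 (r of 0.989), Umodl1 (0.986), Rhox4g (0.979), Esr1 (0.977) and Slc16a11 (0.972). The levels most like those of the brighter Pdzk1ip1 probe were found for Esr1 (r of 0.984), Tox3 (0.973), Rhox4g (0.972), Nsun5 (0.964) and D230030E09Rik (0.963). Tox3, Rhox4g and Esr1 were in both groups of 5.

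The sizes of the differences were not alike among these genes. Umodl1 had a log2 ratio of 0.95 ± 0.19 and was called, while Tox3 had only 0.25 ± 0.06, Slc16a11 0.52 ± 0.09, Rhox4g 0.39 ± 0.10, D230030E09Rik 0.39 ± 0.07 and Nsun5 0.12 ± 0.02 (SD, n = 4) and were not. Esr1 was called but was not well above background in the control channel on any array, so no fold is given for it. The CreERT2 recombinase of these embryos contains part of an estrogen receptor, and whether the Esr1 probe detects it was not tested. Within the gene set, Gata2 followed the pair next, with r of 0.581 to Tal1 and 0.590 to Pdzk1ip1. Lyl1, Lmo1 and Stil, whose mean log2 ratios were below 0, had r below 0 with both, between −0.278 and −0.0567.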

How the data were processed

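Organ of Corti RNA of Sox2-Tbx2LOF and control pools was compared on 4 dual-colour arrays, and groups, sexes and dyes were taken from the deposited labels. The deposited scanner files hold linear spot intensity values, the mean of each spot and the median of its local background, which the authors extracted with Agilent Feature Extraction 10.7.3.1 and did not normalize. A log10 ratio, red over green, is deposited with them, which the authors' software had corrected for background and dye. The deposited series matrix holds signed fold changes (Sox2-Tbx2LOF over control) made by the authors, with steps not given in the sources used here. Its scale and direction were settled against the scanner values (r of 0.937 to 0.954 over the tested probes), its median on each array is no change, and 31.6% to 32% of its values are exactly at no change. How it was centred stays unknown.

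Background was corrected with normexp (offset 50) and ratios were normalized by loess within each array in limma 3.58.1 (R 4.3.3). Control spots and flagged spots were left out, and the spots of a probe were averaged. Channel levels were taken after loess and limma's Aquantile normalization between arrays. A probe was tested when more than 0.5 of its spots were well above background on at least 3 arrays in either genotype and it had a value on all 4, which left 28079 of 39429 probes. Ratios were tested with limma (lmFit and eBayes) with a dye term and Benjamini-Hochberg adjustment over all tested probes, and a probe was called at an adjusted p under 0.05 and at least 1.5-fold. All p-values are two-sided, and the fit was tested on simulated data. The study's own test, an unpaired comparison with regrouping of the samples, was not run, and an unpaired limma fit stood in for it. The methods describe the pools as independent. Both channels of an array share the hybridisation, which paired the pools in the main fit. Deviations of the 2 pools of an array from their group means correlated with r of 0.32, −0.334, 0.0877 and 0.212.

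Probe positions are those of the files on mm9. Symbols followed RefSeq (GRCm38.p6) where accessions matched, for 28328 probes. The RefSeq coordinates are another build and were set against no probe position. The genes and lists were chosen with earlier results of these data known. Some genes of the marker and target lists are not reported here, and list counts and medians leave them out. Named genes were every probe of the set, called probes within 1 Mb of Tal1 and the nearest tested gene on each side, of each list the called genes or else the 2 with the largest ratio in either direction, and the 5 genes most alike to Tal1 and to Pdzk1ip1. Efcab14, Cyp4x1, Otof and the less alike members were named after their values were seen. A gene of a list was represented by its brightest tested probe. Precision is limited by the number of arrays.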

Additional observations from a re-analysis of the deposited data

Results flagged for a closer look

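For each of the 12 probes the log2 ratios and the levels of either genotype were searched for a sample far from the other 3, which gave 36 groups of 4 values, and 1 of them had such a sample. Chance alone would mark about 1 in 20 such groups. The Lmo2 log2 ratio on array 4, which held male pools with Sox2-Tbx2LOF in Cy5, was −0.19, whereas the other 3 arrays lay between 0.08 and 0.12. The gap made up 0.852 of the whole range.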

How the results depend on the processing

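The number of called probes, 70 in all, was 124 with the log ratio of the scanner software, 277 with no minimum fold and 2 with the values of the series matrix, and it ran from 68 to 106 when 1 array was left out, with 106 without array 1. The 3 called probes of the set were also the 3 called within 1 Mb of Tal1. Their number remained 3 under 13 alternatives and became 0 with the series matrix. With that matrix the Tal1 log2 ratio was 1.69, with a limma adjusted p of 0.223. The Pdzk1ip1 log2 ratios were 1.23 and 1.90, with limma adjusted p of 0.0997 and 0.0579. Tal1 and Pdzk1ip1 were chosen by this contrast, so these counts and p-values describe the processing and are no test of the genes. In that matrix 770 tested probes were at no change on all 4 arrays, and the cause was not tested. The 1 called gene of the lists as reported here became 4 with no minimum fold and 0 with the series matrix. Without any 1 array the probes of the set and of the region stayed at 3 to 3, the list genes at 1 to 1, and the median log2 ratio over the 12 probes, 0.07, at 0.03 to 0.12. The unpaired limma fit on channel levels, with no replicate block, called 57 probes, 3 of the set, 3 of the region and 1 list gene. No probe of the set had a sex difference of its log2 ratio under any of the 8 alternatives run for that test. Of 168 values of single probes under the alternatives, 166 stayed within 1 SD. The other 2 were the dimmer Pdzk1ip1 probe, at 1.90 with the scanner software and with the series matrix. No called probe of the set changed its sign. Dim probes such as those of Tal2 and Stil limit what ratios near 0 can show.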
